A study of Mus musculus with 6 samples.

Results

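Regulatory T cell genes were followed in 6 bulk RNA-seq libraries of mouse Th17 cells, as 10 genes taken by symbol from a deposited table of 24182 genes: Foxp3, Ikzf2, Ikzf4, Nrp1, Itgae, Entpd1, Nt5e, Lrrc32, Il10 and Tgfb1. All 10 had a row, including those under 1 FPKM (a fragment count scaled for feature length and library size). The cells were Th17 cells, CD4 T helper cells that make interleukin 17, labelled Sirt2 KO (3 libraries) or Sirt2 WT (3 libraries). Sirt2, a NAD-dependent deacetylase, had been targeted with CRISPR/Cas9 in the first group, and both groups received antibodies to CD3 (0.5 μg/mL) and CD28 (1 μg/mL) for 72 hours before RNA was taken. The guide, the mouse strain and age, whether the KO cells are a pool or a clone, and what the WT cells received in place of the Sirt2 guide are not given in the sources used here. No label ties a replicate to its own culture or animal. The p-values therefore rest on library-to-library variation that could be technical alone.

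Regulatory T cells are CD4 T cells that restrain immune responses, and their identity depends on the transcription factor Foxp3, helped by the Ikaros family members Helios (Ikzf2) and Eos (Ikzf4). They act in part through the cytokines IL-10 and TGF-β1, whose latent form is anchored on the cell surface by GARP (Lrrc32). They also act through the ectoenzymes CD39 (Entpd1) and CD73 (Nt5e), which together turn extracellular ATP into adenosine. Neuropilin 1 (Nrp1) and the integrin αE chain CD103 (Itgae) mark subsets of them. Several of these genes are shared with Th17 cells, since TGF-β signalling feeds both fates and Th17 cells can make IL-10.

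The libraries differed in ways that touch the results. Summed gene FPKM was 303772 to 321734 per library, and the tables used here hold FPKM, so the depth behind a value is unknown. Sirt2 was at 10.9 to 13.5 FPKM in KO, against 19.9 to 21.9 FPKM in WT, the direction that the labels imply. The KO mean was 0.572 times the WT mean, so the RNA was lowered only in part. RNA levels do not show how much Sirt2 protein was left. KO replicate 3 stood apart from its group: its Pearson r over the tested genes was 0.981 and 0.979 with the other KO libraries and 0.990 with each WT library. Deviations from the WT mean also followed gene length, with a Spearman coefficient of -0.32, -0.45 and 0.20 in KO replicates 1 to 3 and from -0.23 to 0.25 in WT (across genes, which are not independent replicates). Differences of the 10 genes are therefore also given without KO replicate 3 and with the length trend removed. Leaving out the KO library most like WT favours larger differences between genotypes, so that fit is not independent support. The cell type label was checked on 7 Th17 markers, all of which passed the filter. Il17a, the cytokine gene that gives these cells their name, was at 16.0 to 26.7 FPKM.

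In both genotypes Tgfb1 was by far the highest of the 10 genes, followed by Ikzf4, Il10 and Nt5e, while Foxp3 and the other 5 lay near or under 1 FPKM. Mean gene FPKM over the 6 libraries was 36.8 for Tgfb1, 6.17 for Ikzf4, 4.55 for Il10 and 2.67 for Nt5e. It was 0.884 for Foxp3, 0.881 for Ikzf2, 0.583 for Lrrc32, 0.438 for Entpd1, 0.276 for Nrp1 and 0.239 for Itgae. Among the WT libraries, the ranges of neighbours in this order were separate from Tgfb1 down to Foxp3, and each pair of neighbours from Foxp3 down to Itgae overlapped. Bulk RNA cannot tell a low level in all cells from a higher level in a few cells.

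The scale of these levels needs care, because the gene value is spread over all annotated exons. For 83.4 percent of the 15114 genes compared, it equalled the summed transcript FPKM times length over the merged exon length of the gene, within 1 percent. Genes with long retained-intron transcripts are thereby lowered. The main coding transcript of Nrp1 was 2.48 times its gene value, that of Tgfb1 2.28 times and that of Nt5e 2.13 times. Ranked by the main coding transcript, Nt5e (5.70 FPKM) passed Il10 (4.55 FPKM) and Nrp1 moved from ninth to sixth at 0.685 FPKM. Foxp3 dropped from rank 5 to rank 7 at 0.645 FPKM, below Ikzf2 at 1.09 FPKM and Nrp1. Lrrc32 dropped from rank 7 to rank 9 at 0.529 FPKM.

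**Figure D1:**
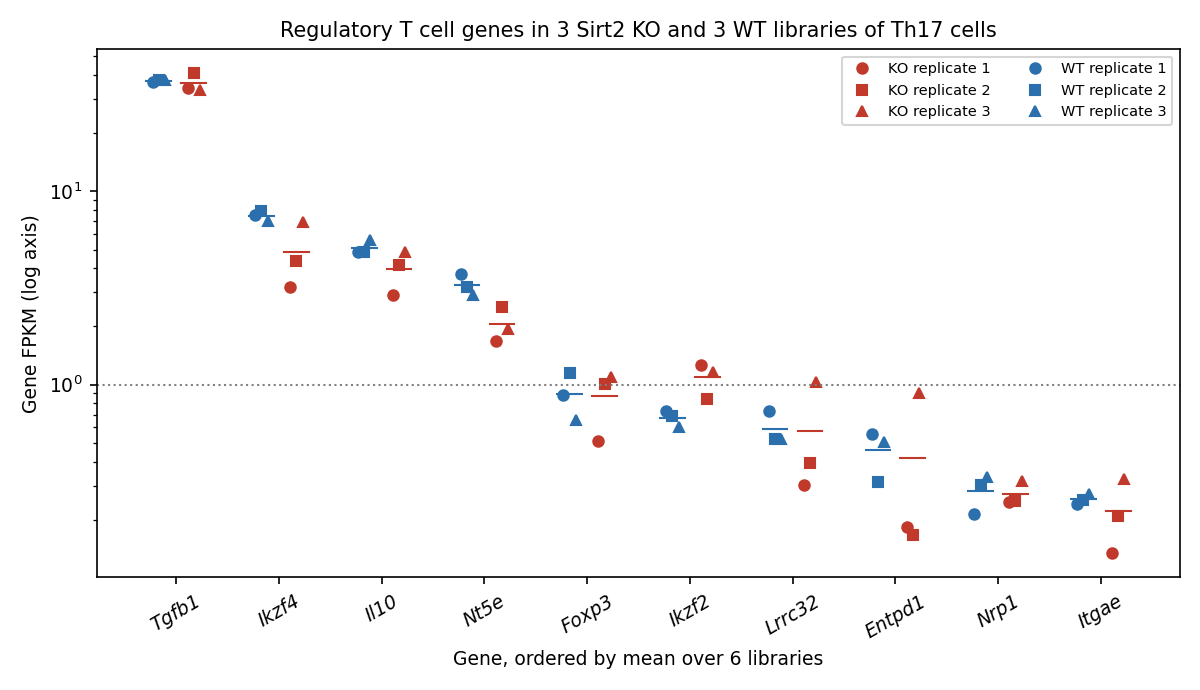
Gene FPKM (log axis) of the 10 genes in each library, ordered by mean, with circles, squares and triangles for replicates 1, 2 and 3, red for KO and blue for WT, short lines for group means and a dotted line at 1 FPKM. KO lies below WT without overlap for Ikzf4, Il10 and Nt5e and above it for Ikzf2, while the other 6 overlap.

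Of the 10 genes, 5 (Tgfb1, Ikzf4, Il10, Nt5e and Foxp3) reached 1 FPKM in at least 3 libraries and entered the test of KO against WT, a limma fit on log2(FPKM + 1) over 10873 genes. At an adjusted p under 0.05, 0 of these 5 were called, against 0.110 percent of all tested genes. At an unadjusted p under 0.05, 2 of the 5 were lower in KO (Nt5e and Ikzf4), against 3.07 percent of tested genes. Fitted without the filter, 0 of 10 were called, against 0.0331 percent of all genes. Other settings also called 0 of those tested. The share of all tested genes called was then 0.120 percent with median scaling or a replicate block, 0.156 percent with the length trend removed, 0.0710 percent with a filter at 5 FPKM and 0.0644 percent at an adjusted p under 0.01. It was 0.0556, 0.0558, 0.00930 and 0.0371 percent without KO replicate 2 and WT replicates 1, 2 and 3, and 0 without KO replicate 1. The fit without KO replicate 3 called 10.1 percent of all tested genes and 1 of these (Ikzf4). All 3 KO libraries lay below all 3 WT libraries for 3 of 10 genes (Ikzf4, Il10 and Nt5e), against 5.26 percent of the whole table, and above them for 1 (Ikzf2), against 3.79 percent. For a single gene, an exact permutation test of 3 against 3 libraries cannot go below p = 0.1, so these separations reach only that value.

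Among the transcription factors, Foxp3 itself did not separate the genotypes. Foxp3 (ENSMUSG00000039521, GRCm38 chromosome X, 7573644 to 7595245, plus strand) measured 0.514, 1.01 and 1.09 FPKM across KO replicates 1 to 3, against 0.886, 1.14 and 0.654 FPKM across the WT replicates. The groups overlapped almost entirely, with the lowest value in KO replicate 1 and the highest in WT replicate 2. The log2 difference was -0.02 (95% interval -0.41 to 0.36, limma adjusted p = 0.981). It was -0.11 without KO replicate 3, where Foxp3 missed the filter and was not tested, 0.12 without KO replicate 1 and 0.02 with the length trend removed.

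The transcripts that made up the Foxp3 value differed from library to library. All 4 Foxp3 transcripts in the table share the same 11 coding exons (429 codons) and differ outside them. The sources used here do not say how reads were shared out between transcripts. Transcripts starting at 7579669 or 7579676 held 100 percent of Foxp3 transcript FPKM in KO replicates 1 and 3 and 29.7 percent in KO replicate 2, against 51.1, 79.6 and 58.6 percent in WT. In KO replicate 2, 56.2 percent went to the transcript starting at 7580483, which was listed at 0 in KO replicates 1 and 3 and in WT replicate 1. Transcript ENSMUST00000045566, starting further downstream at 7586273, was listed at 0 in KO replicates 1 and 3, at 0.177 FPKM in KO replicate 2, and at 0.541, 0.244 and 0.213 FPKM in WT. None of the 4 reached the filter.

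RefSeq (GRCm38.p6) gives promoter windows for the 2 upstream start sites, from 250 bases before to 50 bases after each. They are printed because the split of transcript FPKM between starts differed from library to library. Capitals mark matches, on either strand, to 4 motifs of factor families tied to T cell activation and Foxp3: RUNX (TGTGGT), NFAT (GGAAA), AP-1 (TGANTCA) and STAT (TTCNNNGAA).
Foxp3 first start site, chrX:7579426-7579725, plus strand: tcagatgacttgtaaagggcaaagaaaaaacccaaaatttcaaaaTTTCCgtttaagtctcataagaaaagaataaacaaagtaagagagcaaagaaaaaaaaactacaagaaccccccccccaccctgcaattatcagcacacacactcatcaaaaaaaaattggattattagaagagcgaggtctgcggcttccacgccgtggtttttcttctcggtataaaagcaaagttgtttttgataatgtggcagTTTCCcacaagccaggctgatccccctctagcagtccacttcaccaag
Foxp3 second start site, chrX:7580233-7580532, plus strand: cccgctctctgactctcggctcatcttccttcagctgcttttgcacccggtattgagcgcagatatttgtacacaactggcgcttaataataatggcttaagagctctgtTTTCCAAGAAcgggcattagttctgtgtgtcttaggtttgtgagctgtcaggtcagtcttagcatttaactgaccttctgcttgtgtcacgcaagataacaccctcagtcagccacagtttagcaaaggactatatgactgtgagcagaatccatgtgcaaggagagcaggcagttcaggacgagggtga
The first window held 2 NFAT matches and no match to the other 3 motifs. The second held 1 NFAT and 1 STAT match, which overlap. Of 32851 promoter windows of the same length, 61.3 percent held an NFAT match and 8.30 percent a STAT match, so the NFAT letters are common. A match is a description of the letters and not a bound site.

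Ikzf2, which encodes Helios, was the only one of the 10 genes with every KO library above every WT library. Ikzf2 (ENSMUSG00000025997, chromosome 1, 69531214 to 69687245, minus strand) was at 1.26, 0.843 and 1.16 FPKM in KO, against 0.731, 0.684 and 0.601 FPKM in WT, and the KO mean was 1.62 times the WT mean. The KO libraries were all above the WT libraries, with KO replicate 2 nearest to them. It reached 1 FPKM in only 2 libraries and was not in the filtered fit. Without the filter its log2 difference was 0.32 (95% interval 0.05 to 0.58, limma adjusted p = 0.848). The authors' deposited table gives Ikzf2 a q of 0.0425 but does not mark it significant, and the smallest fold among the 71 genes marked there is 2.19. Nearly all of the signal, 96.9 percent, came from coding transcript ENSMUST00000027146. This transcript was at 1.35 ± 0.265 FPKM (SD, n = 3) in KO and 0.837 ± 0.0846 FPKM in WT (limma adjusted p = 0.891). It passed the filter through the KO libraries alone, since no WT library was above 0.915 FPKM. Its test therefore rests on the group where it was high. The gene difference was 0.29 without KO replicate 3 and 0.43 with the length trend removed.

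Ikzf4, which encodes Eos, a partner of Foxp3 in gene repression, was lower in KO, mostly in KO replicates 1 and 2. Ikzf4 (ENSMUSG00000002578, chromosome 10, 128630843 to 128645991, minus strand) was at 3.21, 4.36 and 6.96 FPKM in KO, against 7.58, 7.87 and 7.01 FPKM in WT, and the KO mean was 0.647 times the WT mean. KO replicate 3 lay just under the lowest WT library, while the other KO libraries were far below. The log2 difference was -0.59 (SE 0.209, 95% interval -1.07 to -0.10, limma adjusted p = 0.843). Without KO replicate 3, Ikzf4 fell by 0.84 (limma adjusted p = 0.0118), and it was the only one of the 4 genes tested in that fit to be called, where 10.1 percent of all tested genes were. Without KO replicate 1 the difference was smaller, at -0.38 (limma adjusted p = 0.999). With the length trend removed the difference was -0.52 (limma adjusted p = 0.770).

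The coding transcripts of Ikzf4 were also lowest in KO replicates 1 and 2. ENSMUST00000133342, with 71.9 percent of Ikzf4 transcript FPKM, was at 3.0, 4.82 and 7.44 FPKM in KO, against 8.25, 8.24 and 7.29 FPKM in WT. Here KO replicate 3 was above WT replicate 3, so the groups overlapped (log2 difference -0.62, limma adjusted p = 0.891). The shorter coding transcript ENSMUST00000222067 was at 0.424, 0.550 and 1.76 FPKM in KO, against 1.46, 2.42 and 1.19 FPKM in WT (limma adjusted p = 0.911).

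**Figure D2:**
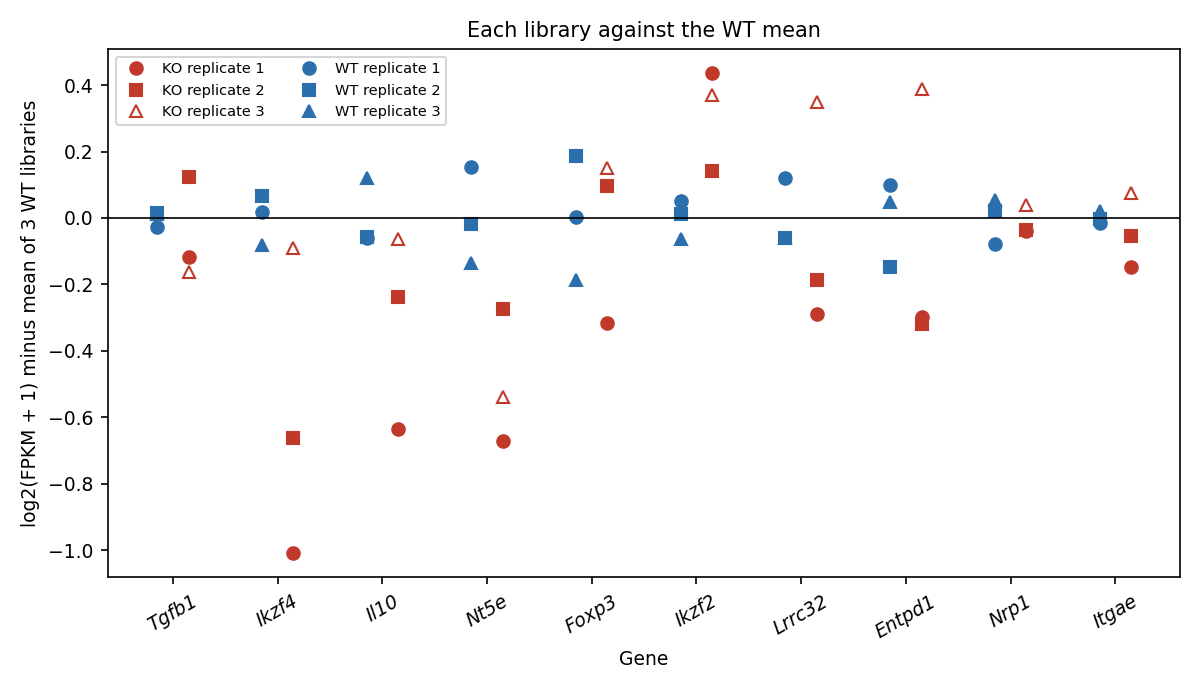
log2(FPKM + 1) of each library minus the mean of the 3 WT libraries, for the 10 genes, with filled red symbols for KO replicates 1 and 2, open triangles for KO replicate 3 and blue symbols for WT. KO replicate 3 is the highest KO library for 7 genes and lies above every WT library for Lrrc32, Entpd1, Itgae and Ikzf2.

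Of the cytokine genes, Il10 was lower in KO without overlap and Tgfb1 was not separated. Il10 (ENSMUSG00000016529, chromosome 1, 131019845 to 131024974, plus strand), the anti-inflammatory cytokine, was at 2.93, 4.18 and 4.83 FPKM in KO, against 4.85, 4.86 and 5.63 FPKM in WT. KO replicate 3 lay just under the lowest WT library, and KO replicate 1 was well below the rest. The log2 difference was -0.31 (SE 0.149, 95% interval -0.66 to 0.04, limma adjusted p = 0.843), and it was -0.44 without KO replicate 3 (limma adjusted p = 0.0703) but -0.15 without KO replicate 1 (limma adjusted p = 0.999). With the length trend removed it was -0.35. The Il10 value rests on 1 transcript, so its gene and transcript levels are the same.

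Tgfb1 (ENSMUSG00000002603, chromosome 7, 25687002 to 25705077, plus strand) was at 34.4, 40.9 and 33.3 FPKM in KO, against 36.7, 37.8 and 37.7 FPKM in WT. The KO libraries fell on both sides of the narrow WT range. The log2 difference of -0.05 had a 95% interval of -0.25 to 0.15 (limma adjusted p = 0.910). It was 0.00279 without KO replicate 3 and -0.04 with the length trend removed. Coding transcript ENSMUST00000002678 held 97.7 percent of its transcript FPKM, at 82.5 ± 9.44 FPKM in KO, against 85.4 ± 1.21 FPKM in WT.

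Lrrc32 (ENSMUSG00000090958, chromosome 7, 98489283 to 98502181, plus strand), which encodes the surface anchor of latent TGF-β1, was at 0.301, 0.395 and 1.03 FPKM in KO, against 0.727, 0.525 and 0.523 FPKM in WT. KO replicates 1 and 2 were below every WT library and KO replicate 3 was above them, so the mean log2 difference of -0.04 averages opposite values. It was -0.24 without KO replicate 3, 0.08 without KO replicate 1 and 0.02 with the length trend removed. In 5 libraries the transcript FPKM lay on ENSMUST00000205956 (94.1 to 100 percent), whereas in KO replicate 2 all of it, 0.485 FPKM, lay on ENSMUST00000165205. Both transcripts have the same coding exons (663 codons). The authors' deposited table marks ENSMUST00000165205 as significant (q = 2.81e-07), a call that rests on this 1 library, since the other 5 list it at 0.

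Of the ectoenzyme genes of the adenosine pathway, Nt5e was lower in each KO library and Entpd1 was not separated. Nt5e (ENSMUSG00000032420, chromosome 9, 88327197 to 88372092, plus strand), which encodes CD73, the enzyme that makes adenosine from AMP, had the smallest p among the 10 genes. It was at 1.68, 2.53 and 1.94 FPKM in KO, against 3.75, 3.22 and 2.89 FPKM in WT, and the KO mean was 0.624 times the WT mean. All 3 KO libraries were below WT, and KO replicate 3 sided with its group here. The log2 difference was -0.50 (SE 0.132, 95% interval -0.80 to -0.19, unadjusted p = 0.00625, limma adjusted p = 0.715). Without KO replicate 3 it was -0.47 (limma adjusted p = 0.0726), and with the length trend removed -0.45. Without KO replicate 1 it was -0.41 (limma adjusted p = 0.999), and without KO replicate 2 it was -0.61 (limma adjusted p = 0.586). These were the ends of its range over the fits that left out a library. Coding transcript ENSMUST00000034992 held 98.8 percent of the transcript FPKM and was at 4.38 ± 0.896 FPKM in KO, against 7.02 ± 0.957 FPKM in WT (limma adjusted p = 0.780). The authors' deposited table gives the Nt5e gene a q of 0.0514.

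Entpd1 (ENSMUSG00000048120, chromosome 19, 40612366 to 40741602, plus strand), which encodes CD39, the enzyme upstream of CD73, was at 0.184, 0.166 and 0.903 FPKM in KO, against 0.556, 0.313 and 0.505 FPKM in WT. KO replicates 1 and 2 were the lowest libraries and KO replicate 3 the highest. The log2 difference over all libraries was -0.08 (95% interval -0.60 to 0.45 without the filter, limma adjusted p = 0.942), and it was -0.31 without KO replicate 3, with no test since Entpd1 was under the filter in either case. With the length trend removed it was -0.02.

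Most Entpd1 transcript FPKM was assigned to 1 of its annotated start regions, with KO replicate 2 as the exception. Transcripts starting between 40659770 and 40659844 held 94.4 percent of Entpd1 transcript FPKM over the 6 libraries, and those starting at 40612389 or 40612397 held 4.81 percent. Transcripts of this first region were listed at 0 in all libraries but KO replicate 2 (0.136 FPKM, 49.1 percent of its Entpd1 transcript FPKM) and KO replicate 3 (0.0432 FPKM). How reads were shared out between these transcripts is not stated, and Entpd1 was under 1 FPKM in every library. The promoter windows of both RefSeq start sites are printed side by side, with the 4 motifs in capitals as above.
Entpd1 first start site, chr19:40612116-40612415, plus strand: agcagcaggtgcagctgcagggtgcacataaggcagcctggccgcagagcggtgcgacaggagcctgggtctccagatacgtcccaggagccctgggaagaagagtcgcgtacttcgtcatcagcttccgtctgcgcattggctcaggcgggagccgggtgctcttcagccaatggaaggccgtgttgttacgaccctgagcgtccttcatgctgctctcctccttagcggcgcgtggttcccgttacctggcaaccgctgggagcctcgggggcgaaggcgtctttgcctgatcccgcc
Entpd1 second start site, chr19:40659520-40659819, plus strand: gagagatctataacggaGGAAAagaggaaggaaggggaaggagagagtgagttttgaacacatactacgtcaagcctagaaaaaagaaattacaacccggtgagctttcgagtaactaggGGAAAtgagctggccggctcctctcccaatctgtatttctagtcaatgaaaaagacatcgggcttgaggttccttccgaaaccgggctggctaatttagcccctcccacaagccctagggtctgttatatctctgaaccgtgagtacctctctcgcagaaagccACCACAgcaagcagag
The first window had no match to the 4 motifs and a GC content of 64.0 percent. The second had 2 NFAT matches, 1 RUNX match after the start site and a GC content of 48.7 percent. An NFAT match stood in 61.3 percent of all windows and a RUNX match in 16.8 percent, and their median GC content was 52.7 percent. Any link between these letters and the use of a start was not tested.

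The surface markers Nrp1 and Itgae were low in every library. Nrp1 (ENSMUSG00000025810, chromosome 8, 128358604 to 128503363, plus strand), the semaphorin and VEGF coreceptor neuropilin 1, was at 0.247, 0.248 and 0.316 FPKM in KO, against 0.215, 0.302 and 0.331 FPKM in WT. The groups overlapped, and the log2 difference was -0.01 (95% interval -0.13 to 0.11 without the filter, limma adjusted p = 0.956). It was -0.04 without KO replicate 3 and 0.02 with the length trend removed. Itgae (ENSMUSG00000005947, chromosome 11, 73090583 to 73147446, plus strand), the chain that pairs with Itgb7 to bind E-cadherin, was at 0.134, 0.208 and 0.324 FPKM in KO, against 0.242, 0.253 and 0.273 FPKM in WT. KO replicates 1 and 2 were the lowest libraries and KO replicate 3 the highest. The log2 difference was -0.04 (limma adjusted p = 0.879 without the filter), -0.10 without KO replicate 3 and 0.000675 with the length trend removed. Its retained-intron transcript ENSMUST00000102537 was at 0.00314, 0 and 0.0243 FPKM in KO, against 0.0509, 0.134 and 0.121 FPKM in WT, below WT in each KO library. The coding transcript ENSMUST00000006101 ranged from 0.157 to 0.361 FPKM in KO, against 0.167 to 0.238 FPKM in WT.

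**Figure D3:**
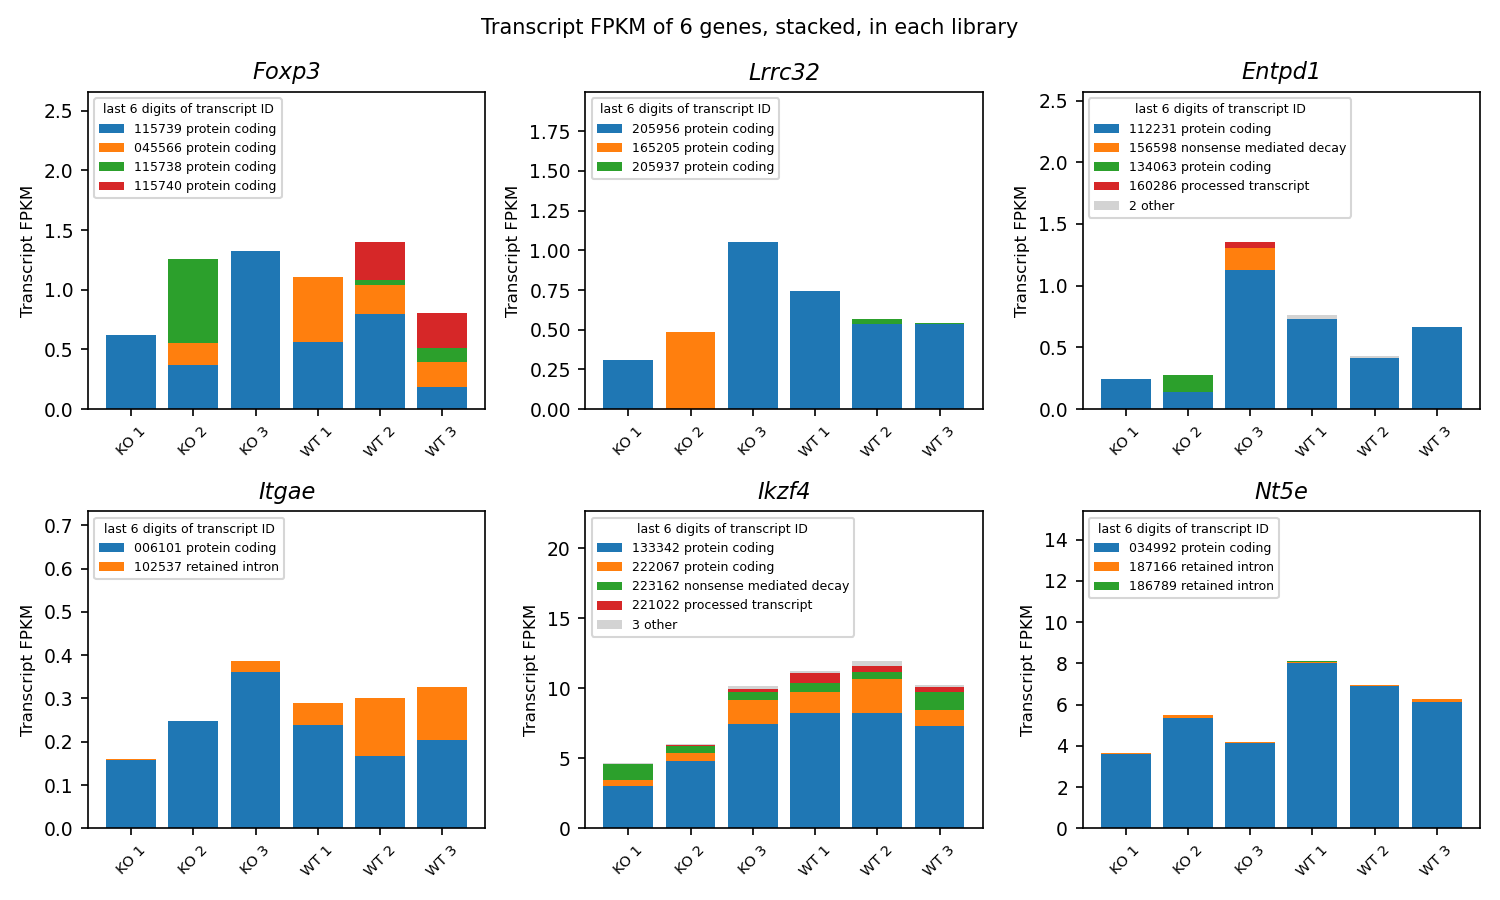
Stacked transcript FPKM per library for Foxp3, Lrrc32, Entpd1, Itgae, Ikzf4 and Nt5e, with colours for transcripts named by the last 6 digits of their identifiers. The blue main coding transcript carries Nt5e and Ikzf4 in every library, while the split of Foxp3 and Lrrc32 changes between libraries.

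Of the 40 transcripts of the 10 genes, 7 reached the filter and 0 were called by limma over 19184 tested transcripts, of which 0.0417 percent were called. At an unadjusted p under 0.05 there was 1, the coding transcript of Nt5e. The Ikzf2 transcript among the 7 passed the filter through its KO libraries alone.

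Across the 10 genes, the KO libraries disagreed more than the WT libraries. The SD of log2(FPKM + 1) was larger in KO for 9 of 10 genes, against 64.4 percent of the whole table. KO replicate 3 was the highest of the KO libraries for 7 of 10, against 42.6 percent. KO replicates 1 and 2 were both below every WT library for 6 of 10 (Ikzf4, Itgae, Entpd1, Nt5e, Lrrc32 and Il10), against 19.7 percent, and for 3 of these 6 KO replicate 3 was not. The mean FPKM was lower in KO for 9 of 10, against 54.4 percent. Of these, only Ikzf4, Il10 and Nt5e had every KO library below every WT library. For Nrp1, Tgfb1, Lrrc32 and Foxp3 the KO mean was 0.957 to 0.975 times the WT mean. All of the counts over the 10 genes weigh them equally, although 5 of them did not pass the filter.

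**Figure D4:**
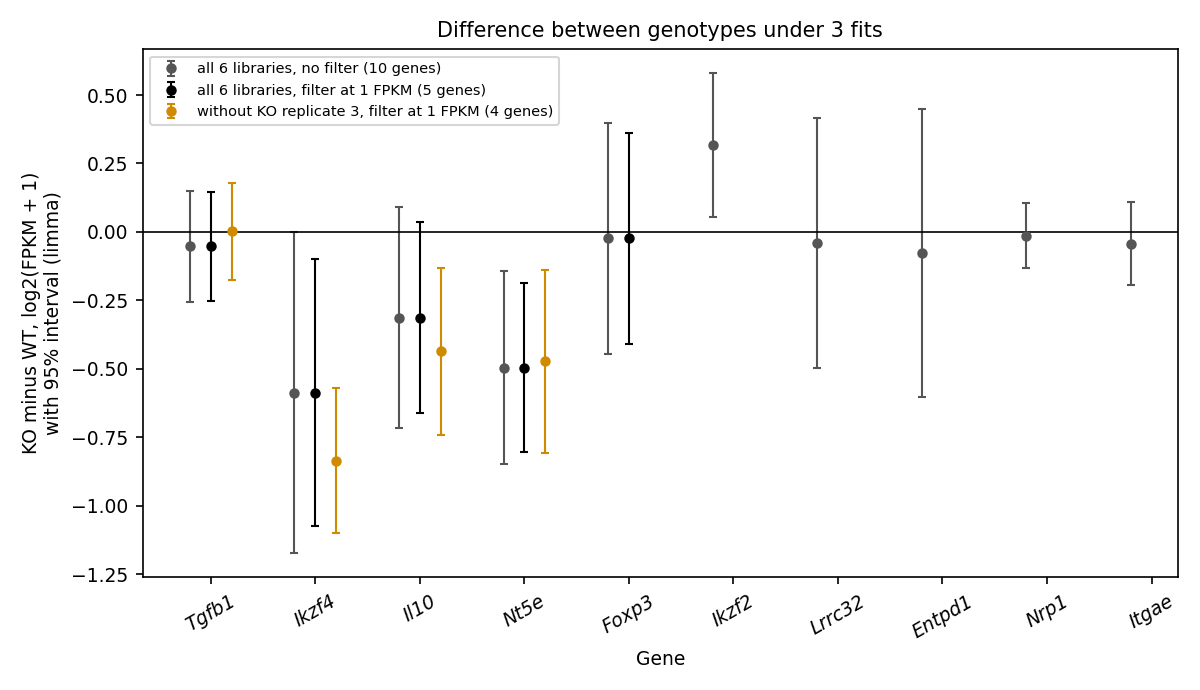
Log2 difference of KO minus WT with limma 95% intervals for the 10 genes fitted without a filter (grey), the 5 that passed the filter at 1 FPKM (black) and the 4 that passed it without KO replicate 3 (orange). Intervals lie wholly below 0 for Nt5e in each fit and for Ikzf4 in each fit, at -0.84 without KO replicate 3. The Ikzf4 interval without a filter ends at -0.00174. The Il10 interval is below 0 only without KO replicate 3, and that of Ikzf2, without a filter, is above 0.

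The genes around these 10 were taken from 7 lists by role, 120 genes in all, of which 95 were tested. With all libraries 0 were called by limma, while 6 were higher and 6 lower in KO at an unadjusted p under 0.05, as were 276 and 334 of all 10873 tested genes. Their median log2 difference was -0.04, against -0.03 over all tested genes. Without KO replicate 3, 5 of 95 rose and 18 fell (24.2 percent), where 429 of all 10726 tested genes rose and 659 fell. The calls thus depended on that library. It was singled out for its likeness to WT in these same data, so leaving it out favours larger differences. Genes named below as called in that fit are a description only. The 5 that rose were Nr4a1, Nr4a3, Batf, Adora2a and Pdcd1.

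Among regulators and partners of Foxp3, 0 of 28 tested genes were called with all libraries, and 2 rose and 6 fell without KO replicate 3. Nr4a1 and Nr4a3, nuclear receptors induced by T cell receptor signals that can activate Foxp3, were the 2 that rose. Those that fell were Irf4 (log2 difference -0.65, limma adjusted p = 0.00313), Ets1, Satb1, Foxo1, Stat5b and Ep300. Nr4a1 was at 97.0, 87.6 and 53.2 FPKM in KO, against 54.8 to 57.8 FPKM in WT, so KO replicate 3 was below WT and the others far above. Nr4a3 was at 9.24, 7.79 and 6.02 FPKM in KO, against 4.99 to 5.96 FPKM in WT. Rel, the NF-κB subunit that binds the Foxp3 locus, was at 31.6, 20.6 and 21.2 FPKM in KO, against 17.5 to 19.2 FPKM in WT. The repressor Bach2 went the other way, at 19.6 to 21.7 FPKM in KO, against 22.8 to 25.2 FPKM in WT. Adjusted p with all libraries was 0.843 for each of these 4 genes. In the Ikaros family list, with 6 tested and 0 called, Ikzf3, which encodes Aiolos, was at 1.95, 2.86 and 3.69 FPKM in KO, against 3.62 to 4.23 FPKM in WT, and it fell without KO replicate 3 (limma adjusted p = 0.0448). Sin3a, a corepressor scaffold, was at 18.9 to 20.7 FPKM in KO, against 20.7 to 22.2 FPKM in WT. Ikzf5 and the corepressor Ctbp1 overlapped between genotypes.

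In the TGF-β list of activators, receptors and SMADs, 0 of 16 tested genes were called, 14 of 16 had a log2 difference below 0, and the median was -0.09. Of all 10873 tested genes, 6382 were below 0. Tgfbr1, the signalling type I receptor, was at 6.99, 7.31 and 10.3 FPKM in KO, against 10.7 to 11.6 FPKM in WT (limma adjusted p = 0.843). It fell without KO replicate 3 (log2 difference -0.58, limma adjusted p = 0.00875), as did 1 other gene of the list, the coreceptor Tgfbr3. Eng, the coreceptor endoglin, was at 2.09 to 2.59 FPKM in KO, against 2.84 to 3.18 FPKM in WT, lower in each KO library. The type II receptor Tgfbr2 was at 12.2 to 14.5 FPKM in KO, against 14.0 to 14.2 FPKM in WT. Smurf2, a ubiquitin ligase for the receptor complex, overlapped. Nrros, which like Lrrc32 anchors latent TGF-β1, was at 3.26 to 4.17 FPKM in KO, against 2.93 to 3.47 FPKM in WT. Itgb8, the integrin chain that frees active TGF-β1, was at most 0.303 FPKM.

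Among the genes of IL-10 signalling and Il10 regulation, 0 of 14 tested were called with all libraries, and 1 rose and 4 fell without KO replicate 3. Maf and Ahr, transcription factors that drive Il10 in T cells, were among the 4, with the kinase Jak1 and the feedback inhibitor Socs3. Maf was at 8.21, 10.2 and 12.5 FPKM in KO, against 13.7 to 15.4 FPKM in WT (log2 difference -0.49, limma adjusted p = 0.738). Ahr was at 20.5, 22.1 and 29.7 FPKM in KO, against 28.9 to 32.3 FPKM in WT. Bhlhe40, a repressor of Il10, was at 173 to 198 FPKM in KO, against 153 to 157 FPKM in WT, with a limma adjusted p of 0.843. Batf was the gene that rose without KO replicate 3. The receptor chain Il10ra was at 1.72, 1.65 and 4.59 FPKM in KO, against 1.92 to 2.39 FPKM in WT, with KO replicate 3 the highest library, whereas Il10rb overlapped.

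Of the genes that handle adenosine, 0 of 10 tested were called. Adora2a, the adenosine receptor through which T cells are inhibited, was at 14.0 and 13.2 FPKM in KO replicates 1 and 2, 6.45 FPKM in KO replicate 3 and 6.49 to 7.80 FPKM in WT. It rose without KO replicate 3 (log2 difference 0.83, limma adjusted p = 0.00632) and did not pass with it (0.51, limma adjusted p = 0.843). Entpd4, an intracellular relative of Entpd1, was at 2.40 to 3.36 FPKM in KO, against 3.46 to 4.01 FPKM in WT, and it fell without KO replicate 3. Ada, which breaks adenosine down, and the transporters Slc29a1 and Slc29a2 overlapped. Of the partners of Nrp1 and Itgae, 0 of 7 tested were called. Itgb7, the β chain that Itgae needs, was at 21.9 to 32.9 FPKM in KO, against 25.8 to 27.9 FPKM in WT, far above Itgae. Sema4d overlapped with all libraries and fell without KO replicate 3, and Plxna1, Plxnd1 and Vegfa overlapped.

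Among other genes tied to regulatory T cells, 0 of 15 tested were called with all libraries. In 4 of the 15 every KO library was above every WT library, as in 465 of all 10873 tested genes. These were the inhibitory receptors Tigit (4.17 to 6.13 against 3.21 to 3.92 FPKM) and Lag3 (11.8 to 19.1 against 9.16 to 10.6 FPKM), the costimulator Tnfrsf4 (322 to 366 against 304 to 316 FPKM) and Cd83 (17.9 to 19.8 against 16.4 to 17.4 FPKM). For both inhibitory receptors KO replicate 3 was the highest library of all. Il2ra, the high-affinity IL-2 receptor chain, was at 201, 226 and 325 FPKM in KO, against 287 to 299 FPKM in WT, and it fell without KO replicate 3 (limma adjusted p = 0.0123), as did Swap70 and Tnfrsf9. Ctla4, the inhibitory receptor that Foxp3 maintains in regulatory T cells, was at 349 to 403 FPKM in KO, against 376 to 402 FPKM in WT.

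**Figure D5:**
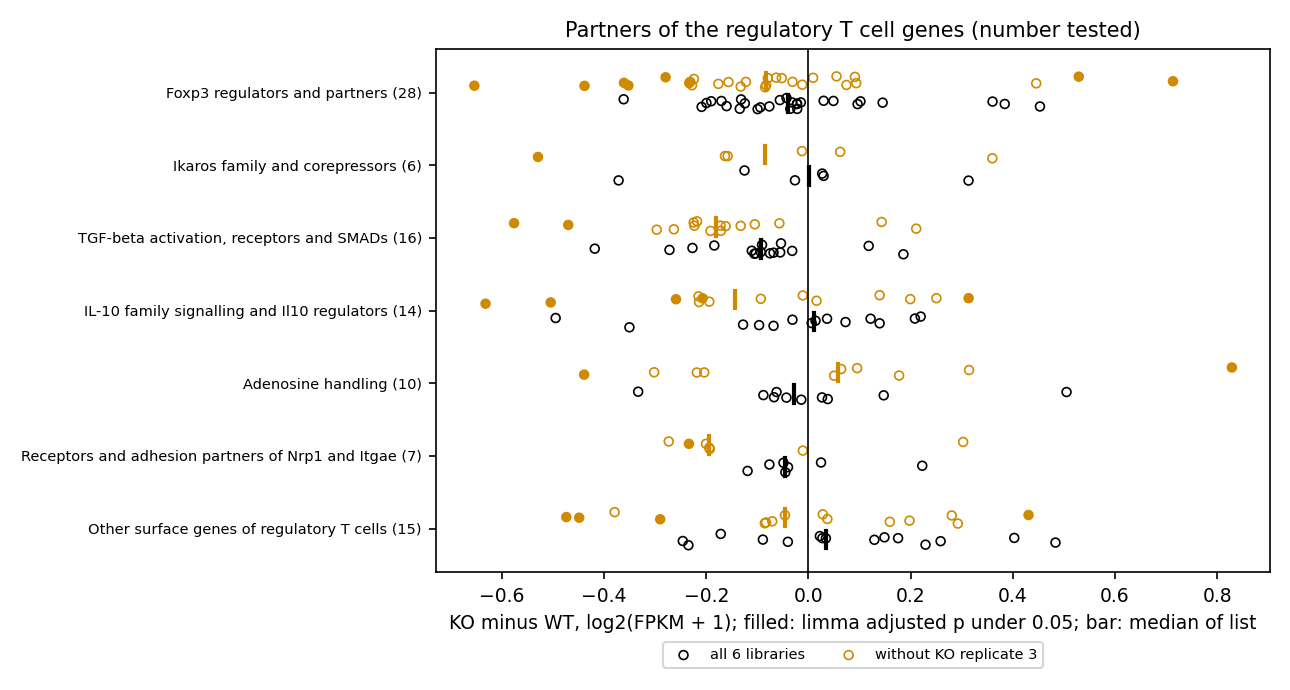
Log2 difference of KO minus WT for the tested genes of 7 lists of partners, in black with all 6 libraries and in orange without KO replicate 3, with filled circles for limma adjusted p under 0.05 and bars for list medians. No black circle is filled, and 23 genes have a filled orange one.

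Some of the 10 genes are also made by other cells, so markers of these were measured. Of 13 myeloid and dendritic markers in the table, 7 had every KO library above every WT library and 1 (Xcr1) had every KO library below, where 3.79 and 5.26 percent of the whole table did. Their summed level was 40.6 to 40.7 FPKM in KO, against 30.3 to 31.5 FPKM in WT, of which Ctss gave 26.3 to 31.4 FPKM. The 7 were Lyz2, Cd14, Fcer1g, Csf1r, Itgam, Itgax and Cd68, while Ctss, Adgre1, Tyrobp, Flt3 and Siglech overlapped. Lyz2 was at 8.31, 9.44 and 4.24 FPKM in KO, against 0.782 to 1.38 FPKM in WT. Cd14 was at 0.881, 1.09 and 1.49 FPKM in KO, against 0.0245 to 0.121 FPKM in WT. Adgre1, Flt3, Xcr1 and Siglech were under 0.12 FPKM throughout, and Siglech was listed at 0 in 4 libraries. The 7 B cell markers summed to 22.7 to 27.6 FPKM in KO, against 19.1 to 19.7 FPKM in WT, nearly all of it Ighm. Of the 2 CD8 T cell markers, Cd8a was at 0.225 to 0.436 FPKM in KO, against 0.0856 to 0.120 FPKM in WT, while the more abundant Cd8b1 overlapped, at 3.18 to 5.92 FPKM in KO, against 3.75 to 4.89 FPKM in WT. Myeloid cells can express Entpd1, Nrp1 and Il10, and CD8 T cells Itgae. The part of these cells in the values of the 10 genes was not tested.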

How the data were processed

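Gene and transcript tables were deposited with 1 FPKM column per library, per the file headers, and groups were taken from sample titles. The submitters' processing notes list HISAT2, StringTie, edgeR, DESeq2, FastQC and cutadapt, with neither version nor role. They name mm9, but 73240 of 73430 transcript IDs found in GENCODE M21 had its GRCm38 positions, as had 39 of the 40 member transcripts, so GRCm38 is used. The authors also deposited a ratio (fold), its log2, and a p-value and q-value for each feature, with no tool stated for them. Whole reads were not recovered: at most 16.7 percent of low single-exon values lay within 0.02 of a whole step.

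The genotypes were compared by limma 3.58.1 on values transformed to log2(FPKM + 1), with a mean trend and Benjamini-Hochberg adjustment over all genes or transcripts with at least 1 FPKM in 3 libraries. Called means adjusted p under 0.05, and "rose" and "fell" are used of called genes. The fold is understated for low genes. Members and lists were chosen with earlier results of these data known. All members are named, with up to 4 tested genes of smallest p per list, partners listed in the design and transcripts with at least 10 percent of a member's FPKM. Irf4, Ets1, Satb1, Foxo1, Stat5b, Ep300, Tgfbr3, Jak1, Socs3, Pdcd1, Swap70, Tnfrsf9 and single markers fall outside this rule and were named after their values were seen. Promoters are from RefSeq GRCm38.p6, which matched 5 of the 10 members. Alternatives were median scaling, no filter, 5 FPKM, a pseudocount of 0.1, no trend, adjusted p under 0.01, a replicate block, each library left out, and, added after the data were seen, removal of the length trend. The enrichment tables were not used.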

Additional observations from a re-analysis of the deposited data

How the results depend on the processing

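With all libraries, 12 genes of the whole table, 0 of the 10 regulatory T cell genes, 0 of their partners and 0 of their transcripts were called. The whole-table count was 5 with a filter at 5 FPKM and 7 at adjusted p under 0.01. Leaving out 1 library at a time, it ran from 0 to 1088, that of the 10 genes from 0 to 1 (Ikzf4, without KO replicate 3) and that of their partners from 0 to 23, the top of each range being the fit without KO replicate 3. No other setting called any of the 10 genes. The differences of Ikzf4, Nt5e, Il10 and Ikzf2 kept their sign without each library in turn, with median scaling, with a pseudocount of 0.1 and with the length trend removed, though Ikzf2 entered a test only without the filter. The other settings leave a difference as it is. Those of Nrp1, Itgae, Entpd1 and Lrrc32 each changed sign in at least 1 of the settings that move a difference. The difference of Foxp3 changed sign without KO replicate 1 and without WT replicate 2 and ran from -0.12 to 0.12 over the fits that left out a library, and it was 0.0191 with the length trend removed. That of Tgfb1 changed sign without KO replicate 3 and ran from -0.14 to 0.00279. The cause was not tested. With a pseudocount of 0.1 the difference was 0.61 for Ikzf2, -0.19 for Itgae, -0.37 for Entpd1 and -0.18 for Lrrc32, since a smaller pseudocount widens the log scale of low genes. No pairing by replicate number was visible in the values. Deviations of same-numbered KO and WT libraries correlated at 0.00668, -0.0170 and -0.0756, and 0 of 3 KO libraries correlated best with their own number. With 3 libraries a group, this cannot tell whether same-numbered libraries shared a culture or animal. The replicate block gave 13 calls over the table and 0 among the 10 genes. Depth is unknown, so the precision of the 5 genes under the filter cannot be given from counts.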
